A study of Mus musculus with 16 samples.

Results

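GATA1s is the short isoform of the transcription factor GATA1, and the comparison described here asks which genes differ in the E14.5 fetal liver of mouse embryos that carry a GATA1s knock-in allele. The carriers were the GATA1s and ERG/GATA1s groups (4 arrays) and the non-carriers were the wild type (WT) and ERG groups (4 arrays), so 8 of the 16 arrays of the series entered the comparison. Groups were taken from the labelled genotype and stage alone. WT embryos carried neither change, ERG embryos carried an ERG transgene, GATA1s embryos carried the knock-in allele, and ERG/GATA1s embryos carried both. The ERG transgene was present in 2 arrays on each side and was fitted as a block. Every group held 1 array labelled female and 1 labelled male. Embryos came from timed matings and were genotyped by PCR, and total RNA was taken with Trizol from a suspension of fetal liver cells and labelled with biotin for Affymetrix arrays. The sources used here do not give the promoter or species of the transgene, the number of copies of the X-linked GATA1s allele in females, or whether embryos were pooled. The p-values therefore measure only the spread between these samples, which may be technical.

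GATA1 binds the DNA letters GATA and directs the formation of red cells and of megakaryocytes, the large cells that shed platelets. GATA1s lacks the start of the protein, which is a transactivation domain. The same short isoform is made in the blood disorders of the megakaryocyte lineage seen in newborns and infants with Down syndrome. ERG, an ETS-family factor, acts in megakaryocytes and in the stem cells of blood and is encoded on the human chromosome present in an extra copy in Down syndrome. Most blood of the midgestation mouse embryo is formed in the fetal liver, whose suspension also holds hepatoblasts, macrophages, endothelial cells and stellate cells.

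Values are log2 signal, so a difference of 1 is a factor of 2. Values of a group are given for the array labelled female and then for the array labelled male, and differences are carriers minus non-carriers ± SE, with n = 4 against 4. Gata1 signal was 9.22 and 9.22 (WT), 9.22 and 9.29 (ERG), 9.26 and 9.64 (GATA1s) and 9.53 and 9.40 (ERG/GATA1s). The difference of 0.22 ± 0.09 had an adjusted p of 0.141 in limma and did not pass. Whether this probe set separates the isoforms was not tested, so it checks no label. Erg differed by -0.02 (adjusted p = 0.926). Gata2, a related factor of progenitors and mast cells that full-length GATA1 is known to repress, differed by 0.20 ± 0.16 (adjusted p = 0.455). Its signal was 6.05 and 6.31 in WT and 6.31 and 6.84 in GATA1s, but 8.79 and 8.30 in ERG and 8.68 and 8.43 in ERG/GATA1s, so it followed the ERG transgene.

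The 8 arrays had medians from 4.80 to 4.86, and arrays of the same group correlated at 0.9761 to 0.995 across the genes tested. The number of arrays limits the precision, and the median residual SD per gene was 0.1329. The hepatocyte product Alb (11.98 to 12.22 over the 8 arrays) and the embryonic globin Hbb-y (11.42 to 12.01) lay near the top of the scale. Sex markers did not follow all labels. The ERG/GATA1s array labelled female read 4.22 for Xist, the RNA of the inactive X, and 6.50 for the mean of 3 Y-linked genes (Eif2s3y, Kdm5d, Uty), as its partner labelled male did (4.19 and 6.38). The ERG array labelled male held both Xist (10.03) and Y-linked signal (5.27). Y-linked signal thus ran 3.03, 6.18, 3.05 and 5.27 in the non-carriers and 3.06, 6.27, 6.50 and 6.38 in the carriers. Its part in the differences below was tested only through a fit with the Y-linked level as a covariate and a fit without the array that opposes its label. Counts of calls from these fits are given beside the gene groups with several calls. Losses given beside single genes mostly name left-out arrays or the ERG block. Named calls lost with the Y-linked covariate are listed under the dependence on processing.

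Of 14982 genes tested, 757 (5.05%) were higher in carriers and 1410 (9.41%) lower at an adjusted p under 0.05 in limma, or 14.5% in all, so that 34.9% of the calls were rises. The rises were the larger changes. Of the called genes, 122 rose and 55 fell at least 2-fold, and 14 rose and 1 fell at least 4-fold. The median absolute difference of the called genes was 0.48 and the median over all tested genes was -0.015. For 891 genes (5.95%) every carrier array lay above every non-carrier array, and for 1737 (11.6%) every carrier array lay below. On the first principal component, with 42.8% of the variance, the non-carriers lay at -27.9, -9, -21 and -17.7 and the carriers at 10.5, 17.4, 22.3 and 25.4. The second component, with 22.9%, set arrays with the transgene apart from those without it. The number of calls depended on the arrays. Leaving out the ERG/GATA1s array labelled female gave 1000 and leaving out the one labelled male 830. It was 782 and 735 without the ERG array labelled female or male and 1104 with the Y-linked level as a covariate. With the ERG transgene left out of the model it was 1403.

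**Figure D1:**
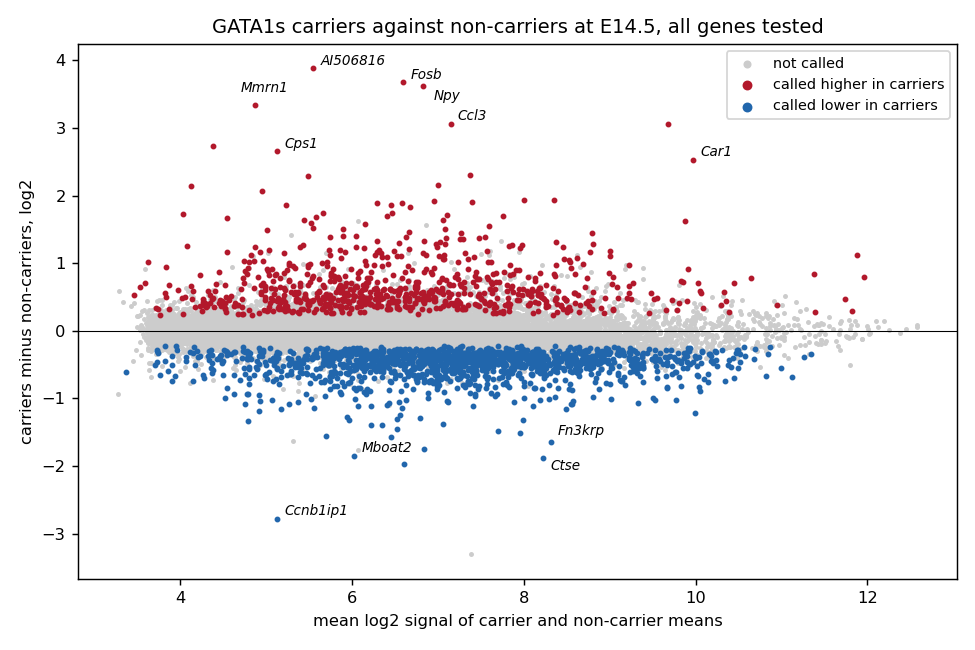
Each point is 1 of the 14982 genes tested, with its mean log2 signal over the 8 E14.5 arrays on the horizontal axis and its log2 difference, carriers minus non-carriers, on the vertical axis. The 757 called rises are red and the 1410 called falls are blue. Falls are more numerous and rises reach further from 0.

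The largest rises included the platelet gene Mmrn1, the immediate early genes Fosb and Jun, a neuropeptide, a chemokine and 2 small RNAs. The 12 largest were AI506816, Fosb, Npy, Mmrn1, Ccl3, Snord118, Klk1b22, Cps1, Car1, Jun, Slc7a11 and Rnu12, by 2.16 to 3.88 on the log2 scale. AI506816 signal was 3.74 and 3.22 (WT), 3.51 and 3.96 (ERG), 7.27 and 7.75 (GATA1s) and 7.5 and 7.44 (ERG/GATA1s), a rise of 3.88 ± 0.16 (limma adjusted p = 7.01e-05). The non-carriers sat at the dim level of 3.74, the 30th percentile of all values, and every carrier far above it. Npy, which encodes neuropeptide Y, read 4.84 and 5.04 (WT), 5.14 and 5.04 (ERG), 7.96 and 9.14 (GATA1s) and 8.76 and 8.68 (ERG/GATA1s). The gap between the groups was wider than either group's spread, and the rise was 12.3-fold (3.62 ± 0.21, adjusted p = 0.000128). Car1, a carbonic anhydrase of red cells, read 8.41 and 8.64 (WT), 8.65 and 9.11 (ERG), 10.78 and 11.45 (GATA1s) and 11.36 and 11.34 (ERG/GATA1s), a rise of 2.53 ± 0.16 (adjusted p = 0.00015). It was the only called member of the 13 carbonic anhydrases tested.

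Cps1, the mitochondrial enzyme that begins the urea cycle in hepatocytes, was 3.73 and 3.81 (WT), 3.75 and 3.91 (ERG), 7.44 and 7.31 (GATA1s) and 6.12 and 4.96 (ERG/GATA1s). Both groups of carriers stood clear of the non-carriers, with the transgene-bearing ones lower, and the rise was 2.66 ± 0.39 (limma adjusted p = 0.00671). Klk1b22, a kallikrein protease, rose by 2.73 ± 0.32 (adjusted p = 0.0035) from non-carrier values of 2.88 to 3.22, all under the dim level, to 4.57 to 6.33. Snord118, the U8 small nucleolar RNA, read 10.39 in the WT array labelled female and 7.27 to 7.61 in the other non-carriers, against 10.76 to 11.63 in carriers. Its rise of 3.06 ± 0.58 (adjusted p = 0.0135) was lost without either ERG array or the ERG/GATA1s array labelled male, where the adjusted p reached 0.0548. Rnu12, the U12 small nuclear RNA of the minor spliceosome, rose by 2.16 ± 0.49 (adjusted p = 0.0237), but the GATA1s array labelled male, at 6.25, lay close to the highest non-carrier at 6.12. That call was lost when any of 5 arrays was left out, both ERG, both ERG/GATA1s and the GATA1s array labelled female, where the adjusted p was as high as 0.082.

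**Figure D2:**
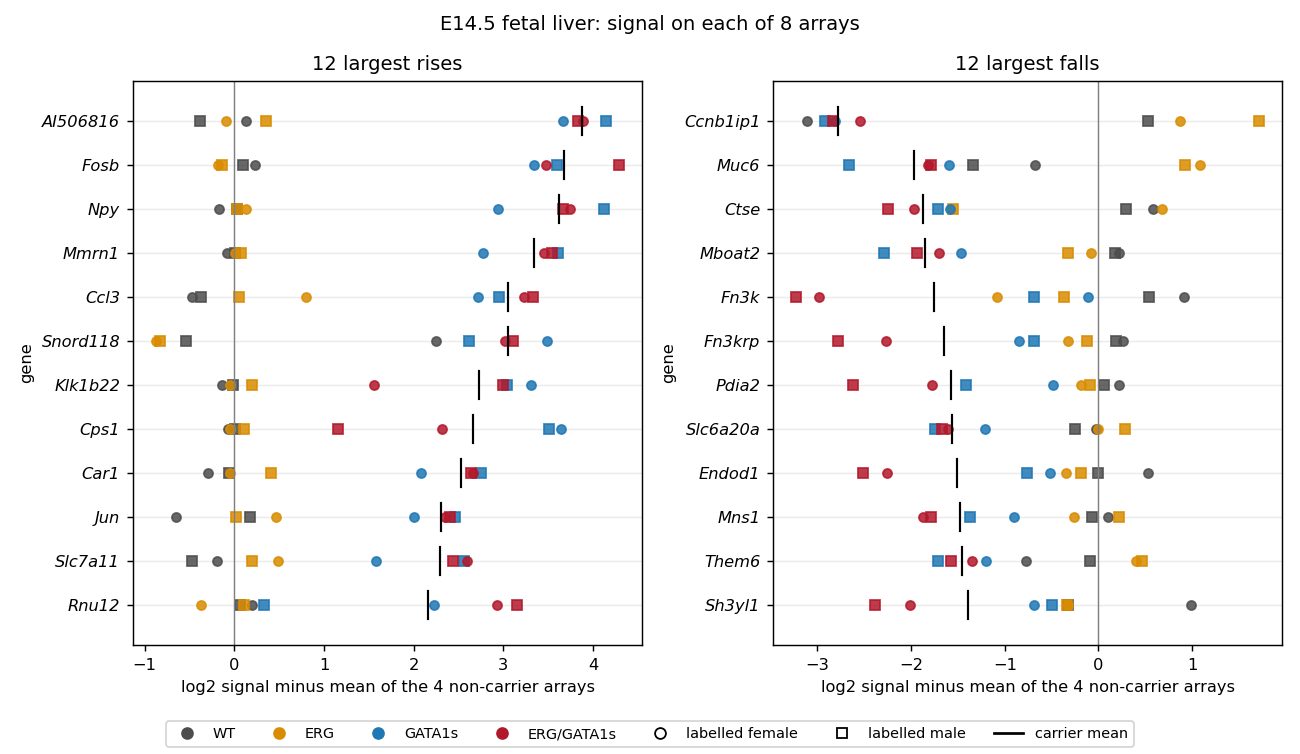
Log2 signal minus the mean of the 4 non-carriers is plotted for the 12 largest rises and the 12 largest falls, with circles for arrays labelled female, squares for arrays labelled male and a black bar at the mean of the carriers. Carriers lie apart from the non-carriers for most genes. For Ccnb1ip1 the WT array labelled female, at 3.40, lies with the carriers, and for Snord118 it lies near them.

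Genes of megakaryocytes and platelets rose together. Of 16 surface receptors tested 13 rose and none fell, of 15 granule and secreted proteins 9 rose and none fell, and of 19 signalling, eicosanoid and skeleton genes 16 rose and none fell. The list medians were 1.2, 0.78 and 0.98, against -0.015 for all genes, of which 5.05% were called higher. The mean signal over the surface receptors was 6.52 to 6.73 in the non-carriers and 7.23 to 7.87 in the carriers, with no overlap, and the lowest carrier was the GATA1s array labelled female. In bulk RNA, a difference in the number of cells of a type and one in the RNA each cell holds cannot be told apart. The lists were chosen with earlier results of these samples known, so their direction is not independent evidence.

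Mmrn1, a large carrier protein stored in platelet granules, read 3.12 and 3.20 (WT), 3.20 and 3.27 (ERG), 5.97 and 6.81 (GATA1s) and 6.65 and 6.74 (ERG/GATA1s). All non-carriers were under the dim level and all carriers well above it, a rise of 3.35 ± 0.16 (limma adjusted p = 0.000113). The adhesion receptor Cd226 read 4.28 and 4.15 (WT), 3.50 and 3.75 (ERG), 5.56 and 6.04 (GATA1s) and 6.20 and 6.16 (ERG/GATA1s), a rise of 2.07 ± 0.20 (adjusted p = 0.00174). The ERG arrays were the lowest and the ERG/GATA1s arrays the highest. Itga2b, the alpha chain of the platelet fibrinogen receptor, read 7.19 and 6.90 (WT), 7.80 and 7.47 (ERG), 7.95 and 8.54 (GATA1s) and 9 and 8.78 (ERG/GATA1s), and rose by 1.23 ± 0.14 (adjusted p = 0.0035). Its lowest carrier lay just above its highest non-carrier. The beta chain Itgb3 rose by 1.93 ± 0.29 (adjusted p = 0.00694).

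The tetraspanin Cd9, a membrane protein abundant on platelets, rose from 6.50 to 7.29 in non-carriers to 8.20 to 8.55 in carriers (1.55 ± 0.17, limma adjusted p = 0.00272). Treml1, a receptor kept in platelet alpha granules, rose by 1.07 ± 0.13 (adjusted p = 0.0035). F13a1, the A subunit of the clot-stabilising factor XIII, read 6.22 and 5.59 (WT), 5.30 and 5.41 (ERG), 6.82 and 7.48 (GATA1s) and 7.97 and 7.84 (ERG/GATA1s), a rise of 1.90 ± 0.28 (adjusted p = 0.00692). Every carrier exceeded every non-carrier, the ERG/GATA1s arrays most. The chemokine Pf4, platelet factor 4, rose by 1.63 ± 0.26, whereas Ppbp, its neighbour in function, differed by 0.10 (adjusted p = 0.747). Nbeal2 (0.78 ± 0.10) and Rab27b (0.96 ± 0.10), which serve the making and release of granules, rose as well.

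Among signalling genes Rasgrp2, the exchange factor that activates Rap1 and through it platelet integrins, read 6.34 and 6.69 (WT), 6.12 and 6.15 (ERG), 7.51 and 7.83 (GATA1s) and 8.01 and 7.98 (ERG/GATA1s). The groups were well apart and the rise was 1.51 ± 0.16 (limma adjusted p = 0.00213). Plek, pleckstrin, a major substrate of protein kinase C in platelets, rose by 1.18 ± 0.11 (adjusted p = 0.00134), from 8.08 to 8.80 in non-carriers to 9.18 to 9.85 in carriers. Both subunits of the nitric oxide receptor, Gucy1a1 (1.16 ± 0.15) and Gucy1b1 (0.98 ± 0.14), rose, and so did the adaptor Lat (1.92 ± 0.27). Gp5, a subunit of the von Willebrand factor receptor complex, differed by 0.27 (adjusted p = 0.395), with 7.51 to 7.76 in the ERG and 7.64 to 7.71 in the ERG/GATA1s arrays. The count of surface receptors called was 10 without the array whose sex markers oppose its label and 11 with the Y-linked covariate. For granule proteins both counts were 8, and for signalling genes both were 12. Itgb3, Pf4, Ppbp, Lat and Gp5 are outside the rule for named genes and were picked after their values were seen.

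Windows before the start site of Mmrn1 and F13a1 are shown because these genes rose most among granule and clotting proteins and hold the letters of the GATA motif. Sequences are RefSeq's for build GRCm38.p6, 5′ to 3′ on the gene's strand, with matches to NGATAA on either strand in capitals. The Mmrn1 window is chr6:60944256-60944315 on the plus strand and the F13a1 window is chr13:37050268-37050327 on the minus strand.
Mmrn1: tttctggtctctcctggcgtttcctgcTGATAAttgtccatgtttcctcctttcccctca
F13a1: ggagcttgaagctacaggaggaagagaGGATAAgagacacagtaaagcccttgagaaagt
Within 250 bases upstream, 5 of the 10 called surface receptors with a promoter sequence held the motif, as did 3 of 6 granule genes and 3 of 13 signalling genes. A match is a description of the letters and not a shown binding site.

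Genes of the red cell lineage fell, by less per gene than platelet genes rose. Of 20 genes of the red cell membrane and skeleton 13 fell and none rose, with all 20 lower and a median of -0.59. Of 18 genes of haem synthesis and iron handling 9 fell and none rose (median -0.52). Of 19 genes of late red cell maturation 11 fell and none rose (median -0.41). By comparison, 9.41% of all genes were called lower. The mean signal over membrane genes was 9.64 to 10.07 in non-carriers and 8.72 to 9.52 in carriers. That of haem and iron genes was 9.56 to 9.97 against 8.87 to 9.53, and both lists separated the groups. Late maturation genes, at 9.02 to 9.55 against 8.30 to 9.14, overlapped. The counts leaned on the ERG arrays: membrane genes called were 7 without either ERG array and 17 without the WT array labelled male, haem and iron genes 5 and 12, and late genes 2 without the ERG array labelled male and 14 without the WT array labelled male. Without the array whose sex markers oppose its label the counts were 9, 8 and 4, with the Y-linked covariate 8, 5 and 4, and with no ERG block 5, 2 and 0.

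Rhd, the mouse Rh antigen of the red cell membrane, read 10.82 and 10.57 (WT), 10.36 and 10.24 (ERG), 10.17 and 9.98 (GATA1s) and 9.30 and 8.99 (ERG/GATA1s). The GATA1s arrays lay just under the ERG arrays and the ERG/GATA1s arrays far under, a fall of 0.89 with SE 0.13 (difference -0.89, limma adjusted p = 0.00711). Cldn13, a claudin of erythroid cells, fell in the same order, from 9.75 to 10.29 in non-carriers to 8.42 to 9.71 in carriers (-0.99 ± 0.15, adjusted p = 0.00711). Both calls were lost with no ERG block, at adjusted p of 0.0628 and 0.0698. Ermap, an erythroid adhesion protein that bears the Scianna blood group, read 11.37 and 11.03 (WT), 11.11 and 11.11 (ERG), 10.68 and 10.63 (GATA1s) and 10.49 and 10.16 (ERG/GATA1s) (-0.67 ± 0.11, adjusted p = 0.00859). Icam4, an adhesion protein of the erythroblast surface, differed by -0.80 ± 0.14 (adjusted p = 0.00965).

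Among genes of haem and iron, Uros, an enzyme of the haem pathway, read 8.95 and 8.94 (WT), 8.40 and 8.50 (ERG), 8.43 and 8.35 (GATA1s) and 7.57 and 7.22 (ERG/GATA1s). The ERG and GATA1s arrays lay at like levels below WT, and the ERG/GATA1s arrays were lowest (-0.81 ± 0.12, limma adjusted p = 0.00711). Slc11a2, the iron importer DMT1, read 8.65 and 8.51 (WT), 8.55 and 8.45 (ERG), 8.03 and 7.93 (GATA1s) and 7.59 and 7.22 (ERG/GATA1s), with WT and ERG at like levels and all carriers below (-0.85 ± 0.13, adjusted p = 0.00694). Slc25a38, the mitochondrial carrier that feeds glycine into haem synthesis, differed by -0.76 ± 0.12 and Steap3, the endosomal ferrireductase of erythroid cells, by -0.57 ± 0.08. The calls of Uros, Slc25a38 and Steap3 were lost with no ERG block (adjusted p 0.1, 0.061 and 0.0942).

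Of the later genes, Btnl10, a butyrophilin-like gene of the erythroid lineage, read 7.38 and 6.85 (WT), 5.86 and 6.39 (ERG), 6.33 and 5.66 (GATA1s) and 4.70 and 4.53 (ERG/GATA1s). Carrier and non-carrier values overlapped across ERG backgrounds and were apart within each (-1.32 ± 0.20, limma adjusted p = 0.00696), and without the ERG block the adjusted p was 0.0942. The glucose transporter Slc2a4 fell (-0.93 ± 0.11, adjusted p = 0.00385, or 0.215 with no ERG block), as did the ubiquitin ligase Trim58 (-0.74 ± 0.15, adjusted p = 0.018), whose call was lost without either ERG or either ERG/GATA1s array (up to 0.0695). Epor, the erythropoietin receptor, read 9.56 and 9.16 (WT), 8.89 and 9.10 (ERG), 8.91 and 8.65 (GATA1s) and 8.56 and 8.36 (ERG/GATA1s). Its difference of -0.56 ± 0.11 (adjusted p = 0.0161) did not pass without the ERG or the ERG/GATA1s array labelled male, with adjusted p up to 0.0631. Of the 4 globin genes tested, the embryonic alpha-like globin Hba-x rose by 0.57 ± 0.11 (adjusted p = 0.0155), a call lost without the same 2 arrays (up to 0.15, with no ERG block). The embryonic beta-like globins Hbb-y (0.17, adjusted p = 0.33) and Hbb-bh1 (0.32, adjusted p = 0.379) did not pass. Hbb-y and Hbb-bh1 were picked after their values were seen.

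Windows of Rhd, Icam4, Ermap and Epor are shown as the counterparts of the platelet windows among genes that fell, again with NGATAA on either strand in capitals and from RefSeq for GRCm38.p6. The Rhd window is chr4:134864466-134864525 (plus strand), Icam4 chr9:21029362-21029421 (plus), Ermap chr4:119190030-119190089 (minus) and Epor chr9:21963598-21963657 (minus).
Rhd: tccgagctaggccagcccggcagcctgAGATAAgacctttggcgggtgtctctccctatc
Icam4: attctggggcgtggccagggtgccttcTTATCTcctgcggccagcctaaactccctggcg
Ermap: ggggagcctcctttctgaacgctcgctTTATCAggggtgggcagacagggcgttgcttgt
Epor: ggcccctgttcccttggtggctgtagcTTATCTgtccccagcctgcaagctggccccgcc
The motif was within 250 bases upstream in 6 of the 9 called membrane genes with a promoter sequence, 3 of 7 haem and iron genes and 4 of 9 late genes. Over all tested genes the share was 18.4% of 11826 promoters, against 22.3% of 593 among rises and 17.7% of 1164 among falls.

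Transcription factors of the GATA, ETS and RUNX families and their partners moved in both directions. Of 37 tested, 10 fell and 4 rose (median -0.02), against 9.41% of all genes called lower and 5.05% called higher. Lmo2, the bridging subunit that joins GATA1 to TAL1 and LDB1, read 10.04 and 10.03 (WT), 10.49 and 10.38 (ERG), 9.39 and 9.45 (GATA1s) and 9.56 and 9.30 (ERG/GATA1s). It was higher with ERG in non-carriers, and all carriers lay below all non-carriers (-0.81 ± 0.10, limma adjusted p = 0.0042). Its partners Tal1 (-0.40) and Ldb1 (-0.29) and the erythroid factor Klf1 (-0.52 ± 0.10, adjusted p = 0.0141) also fell. Myc read 9.41 and 9.43 (WT), 10.27 and 10.08 (ERG), 8.98 and 8.96 (GATA1s) and 9.68 and 9.48 (ERG/GATA1s), so the decrease (-0.52 ± 0.08, adjusted p = 0.00711) appeared within each ERG background and was lost when the block was dropped (adjusted p = 0.202).

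Ikzf1 (-0.55 ± 0.09), Bcl11a (-0.43 ± 0.07), which silences embryonic globin genes, and Myb (-0.45 ± 0.09, limma adjusted p = 0.0132) fell too. The call of Myb was lost without the ERG array labelled male (adjusted p = 0.0509). Runx1 (0.54 ± 0.12, adjusted p = 0.0229) and Fli1 (0.62 ± 0.14, adjusted p = 0.0261), factors of the megakaryocyte lineage, and the myeloid factors Cebpb (0.51) and Cebpa (0.71 ± 0.19, adjusted p = 0.0379) were the 4 rises. The call of Cebpa was lost when either ERG, GATA1s or ERG/GATA1s array was left out, with adjusted p up to 0.104. Zfpm1, which encodes the GATA1 cofactor FOG1 (-0.45), Gfi1b (-0.15) and Nfe2 (-0.22) did not pass. Without the array whose sex markers oppose its label 1 rise and 6 falls passed, and with the Y-linked covariate 2 and 6. The counts ran from 4 falls without the ERG array labelled male and 0 rises without either ERG array, to 6 rises without the WT array labelled male or the GATA1s array labelled female. Tal1, Ldb1, Klf1, Runx1, Fli1, Cebpb, Zfpm1, Gfi1b and Nfe2 were named after their values were seen. Of 10 genes that full-length GATA1 is known to repress, 1 rose (Cebpa) and 3 fell (Myc, Myb and Ikzf1), and the median was 0.03. The shares over all genes were 5.05% called higher and 9.41% called lower.

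**Figure D3:**
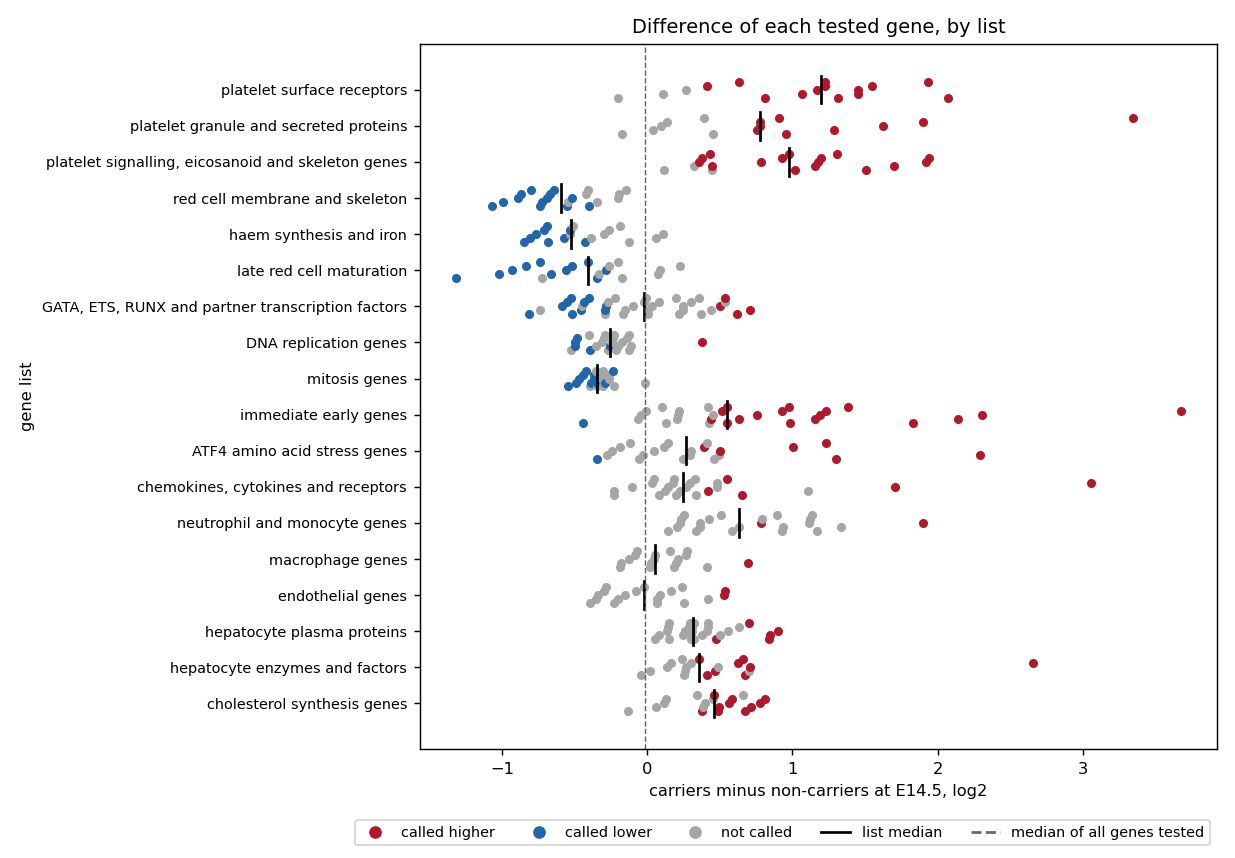
For 18 gene lists, each point is 1 tested member, placed at its log2 difference between carriers and non-carriers at E14.5, with a bar at the list median and a dashed line at the median of all genes, -0.015. Platelet lists lie to the right, with medians of 0.78 to 1.2, and red cell lists to the left, with medians of -0.59 to -0.41.

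Immediate early genes, which cells switch on within minutes of a stimulus without new protein synthesis, rose: 17 of 29 tested, with 1 fall and a median of 0.55. By comparison, 5.05% of all genes were called higher. Their mean signal as a list was 5.18 to 5.51 in non-carriers and 5.98 to 6.29 in carriers. Fosb, a subunit of the AP-1 transcription factor, read 4.99 and 4.85 (WT), 4.57 and 4.62 (ERG), 8.10 and 8.36 (GATA1s) and 8.23 and 9.05 (ERG/GATA1s). The groups were far apart, a 12.8-fold rise (3.68 ± 0.20, limma adjusted p = 0.000128). Jun, its dimer partner, rose by 2.31 ± 0.20 (adjusted p = 0.00122), Jund by 1.38 ± 0.10 (adjusted p = 0.000437), Fos by 1.23 ± 0.12 and Egr1 by 1.19 ± 0.20. Atf3, a stress-induced factor of the ATF family, read 5.40 and 5.75 (WT), 6.02 and 5.85 (ERG), 7.20 and 7.57 (GATA1s) and 7.80 and 7.77 (ERG/GATA1s), a rise of 1.83 ± 0.11 (adjusted p = 0.000128). Rgs1, a regulator of G protein signalling, rose by 2.14 ± 0.12 from non-carrier values under the dim level. The fall was Btg2, an antiproliferative gene (-0.44 ± 0.10). The count of rises was 14 to 18 with 1 array left out, 15 without the array whose sex markers oppose its label and 16 with the Y-linked covariate. Fos, Egr1 and Btg2 were named after their values were seen.

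Of 24 chemokines, cytokines and receptors 5 rose and none fell (median 0.25), or 10 rose without the WT array labelled male. Both sex-marker fits called 4, and over all genes 5.05% were called higher. Ccl3, a chemokine that attracts monocytes, read 5.14 and 5.24 (WT), 6.42 and 5.67 (ERG), 8.33 and 8.57 (GATA1s) and 8.85 and 8.95 (ERG/GATA1s). Its rise of 8.33-fold (3.06 ± 0.16, limma adjusted p = 0.000128) was the largest of the list. Cxcl10, an interferon-inducible chemokine, read 5.12 and 6.14 (WT), 7.08 and 6.64 (ERG), 6.77 and 7.18 (GATA1s) and 9.17 and 8.70 (ERG/GATA1s), so the GATA1s arrays overlapped the ERG arrays while each background showed the rise (1.71 ± 0.26, adjusted p = 0.00711, or 0.102 with no ERG block). Cxcl2 (0.66), Tnf (0.55) and Il1a (0.42, adjusted p = 0.0327) rose by less. All non-carriers of Cxcl2, at 3.04 to 3.50, were under the dim level, and the GATA1s array labelled female, at 3.48, overlapped them. The inhibitor Nfkbia, a gene that NF-kappaB induces, rose by 1.65 ± 0.09 (adjusted p = 0.000128); it and Il1a were picked after their values were seen.

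Of 22 genes of the ATF4 response to amino acid shortage 6 rose and 1 fell (median 0.27), and both sex-marker fits called 6 rises. The shares over all genes were 5.05% higher and 9.41% lower. Slc7a11, which exchanges glutamate for cystine, read 4.14 and 3.86 (WT), 4.82 and 4.53 (ERG), 5.92 and 6.90 (GATA1s) and 6.93 and 6.78 (ERG/GATA1s) (2.30 ± 0.20, limma adjusted p = 0.00122). Chac1, which degrades glutathione, read 5.37 and 5.28 (WT), 6.61 and 6.31 (ERG), 6.79 and 7.19 (GATA1s) and 7.37 and 7.43 (ERG/GATA1s) (1.30 ± 0.16, adjusted p = 0.00418). The ERG arrays alone stood above WT, and the carriers above both. Ddit3, the stress factor CHOP, rose by 1.23 ± 0.08 (adjusted p = 0.00015) and Trib3, a pseudokinase induced with it, by 1.0 ± 0.13 (adjusted p = 0.00501). The fall was Mthfd2 (-0.34), a mitochondrial enzyme of folate metabolism, lost without either ERG or either GATA1s array or the ERG/GATA1s array labelled male. Atf4 itself (0.15) and the asparagine synthetase Asns (-0.24) were, like Mthfd2, picked after their values were seen, and these 2 did not pass.

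Upstream windows of Slc7a11, Chac1 and Atf3 are shown because these 3 stress genes hold the motif TGATGNAA, the core to which ATF4 and C/EBP dimers bind, on either strand (capitals). They are from RefSeq for GRCm38.p6 at chr3:50443646-50443705 (minus strand, 2 matches), chr2:119351023-119351082 (plus) and chr1:191183410-191183469 (minus). Cxcl10 at chr5:92348930-92348989 (minus) is shown with its match to the AP-1 motif TGANTCA.
Slc7a11: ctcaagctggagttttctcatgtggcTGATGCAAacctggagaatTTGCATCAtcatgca
Chac1: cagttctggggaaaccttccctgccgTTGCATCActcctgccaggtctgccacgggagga
Atf3: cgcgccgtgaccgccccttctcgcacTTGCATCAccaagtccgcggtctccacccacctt
Cxcl10: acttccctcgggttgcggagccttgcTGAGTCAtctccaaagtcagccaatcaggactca
Within 250 bases upstream, TGATGNAA was in 2 of the 7 called ATF4 response genes with a promoter sequence. It was in 1 of the 15 called immediate early genes, the list that holds Atf3. TGANTCA was in 2 of the 5 called chemokine, cytokine and receptor genes. TGATGNAA was in 2.42% of all 11826 upstream regions of 250 bases, in 3.71% of those of rises and in 1.8% of those of falls. TGANTCA was in 5.96%, 9.44% and 4.04%, and the ETS motif CCGGAAG in 13.2%, 9.27% and 19.8%, in the same order. These shares describe letters near start sites and carry no test.

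The 12 largest falls, by 1.40 to 2.78, ranged over enzymes, transporters and a mucin. Ccnb1ip1, a ligase of meiotic crossing over, read 3.40 and 7.04 (WT), 7.38 and 8.23 (ERG), 3.70 and 3.59 (GATA1s) and 3.97 and 3.68 (ERG/GATA1s). The WT array labelled female lay under all 4 carriers, so the groups overlapped, and the call (-2.78 ± 0.77, limma adjusted p = 0.0459) was lost without any array but the WT array labelled female (up to 0.139). Mboat2, an acyltransferase of membrane phospholipids, read 7.17 and 7.13 (WT), 6.87 and 6.63 (ERG), 5.48 and 4.66 (GATA1s) and 5.25 and 5.01 (ERG/GATA1s), which kept the groups well apart (-1.85 ± 0.18, adjusted p = 0.00174). Slc6a20a, a proline transporter, fell from 6.23 to 6.76 in non-carriers to 4.73 to 5.27 in carriers (-1.56 ± 0.15, adjusted p = 0.00168), and Mns1 from 8.18 to 8.66 to 6.56 to 7.54 (-1.48 ± 0.18, adjusted p = 0.0035).

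Fn3k and Fn3krp, neighbouring genes for kinases that remove sugars bound to proteins, fell together. Fn3k read 8.63 and 8.26 (WT), 6.63 and 7.35 (ERG), 7.61 and 7.03 (GATA1s) and 4.73 and 4.49 (ERG/GATA1s), with all carriers below the WT arrays and the ERG/GATA1s arrays lowest (-1.75 ± 0.28, limma adjusted p = 0.00851). Fn3krp read 9.40 and 9.32 (WT), 8.81 and 9.01 (ERG), 8.29 and 8.45 (GATA1s) and 6.87 and 6.35 (ERG/GATA1s), with no overlap (-1.65 ± 0.25, adjusted p = 0.00737). With no ERG block the adjusted p was 0.172 for Fn3k and 0.0518 for Fn3krp. Ctse, the protease cathepsin E, read 9.74 and 9.45 (WT), 9.84 and 7.61 (ERG), 7.58 and 7.45 (GATA1s) and 7.19 and 6.91 (ERG/GATA1s). The ERG array labelled male lay beside the carriers. The call (-1.88 ± 0.40, limma adjusted p = 0.0191) was lost with the Y-linked covariate and without the GATA1s or the ERG/GATA1s array labelled male (up to 0.0657). Muc6, a gel-forming mucin (-1.97 ± 0.37, limma adjusted p = 0.0126), lost its call without the ERG array labelled male and with no ERG block (0.0517 at most). Sh3yl1 (-1.40 ± 0.29, adjusted p = 0.0178) lost its call without either ERG or either ERG/GATA1s array (0.0982 at most, with no ERG block). Pdia2, a protein disulfide isomerase (-1.57 ± 0.28), Endod1 (-1.51 ± 0.25) and Them6 (-1.46 ± 0.22) completed the group. The call of Endod1 was lost with no ERG block (limma adjusted p = 0.0679).

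Markers of hepatocytes were higher in carriers as well, with larger list medians in the arrays without the ERG transgene. All 28 plasma proteins of hepatocytes tested were higher in carriers (median 0.32). Of these 5 passed the test, against 5.05% of all genes called higher. Their mean signal overlapped between non-carriers (9.29 to 10.08) and carriers (9.62 to 10.24). Apoa2, an apolipoprotein, read 10.54 and 11.56 (WT), 10.71 and 11.04 (ERG), 12.01 and 11.88 (GATA1s) and 11.65 and 11.66 (ERG/GATA1s) (0.84 ± 0.20, limma adjusted p = 0.0261). The WT array labelled male was the highest non-carrier for it and for the coagulation factor F10 (0.85 ± 0.16, adjusted p = 0.0117). The call of Apoa2 was lost without either ERG, GATA1s or ERG/GATA1s array (up to 0.0924), that of F10 under no such change. The defining products Alb (0.06, adjusted p = 0.599) and Afp (0.15, adjusted p = 0.198), both near the top of the scale, did not pass and were named after their values were seen. Of 19 hepatocyte enzymes and factors 8 rose and none fell (median 0.36), among them Cps1, the urea cycle enzyme Asl (0.63, adjusted p = 0.0125), the nuclear receptor Nr5a2 (0.42, or an adjusted p of 0.158 with no ERG block) and Nags (0.47), which makes the activator of Cps1. The call of Nags was lost without the ERG array labelled female, either GATA1s or either ERG/GATA1s array (up to 0.107, with no ERG block). Apob, the structural protein of lipoproteins, rose by 0.48 (adjusted p = 0.035), a call lost without the same arrays as that of Apoa2 (up to 0.195, with no ERG block). The count of plasma proteins called was 1 without the array whose sex markers oppose its label, as it was without any other ERG, GATA1s or ERG/GATA1s array, and 1 with the Y-linked covariate. That of enzymes was 3 in both fits. The list medians were 0.545 without the transgene and 0.185 with it for plasma proteins, and 0.555 and 0.15 for enzymes and factors. The mean signal of enzymes and factors also overlapped, at 5.31 to 5.98 in non-carriers and 5.57 to 6.49 in carriers. On both lists the mean of the WT array labelled male (10.08 and 5.98) lay above those of both ERG/GATA1s arrays.

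Cholesterol synthesis genes, which SREBP2 controls in most cells and which the liver expresses strongly, also rose: 10 of 19 tested, none falling, with a median of 0.46. Their mean signal was 7.46 to 8.06 in non-carriers and 8.15 to 8.33 in carriers. By comparison, 5.05% of all genes were called higher. Hmgcs1, an early enzyme of the pathway, read 8.09 and 8.64 (WT), 8.21 and 8.42 (ERG), 9.32 and 9.32 (GATA1s) and 9.03 and 8.81 (ERG/GATA1s), with no overlap (0.78 ± 0.14, limma adjusted p = 0.0104). Insig1, the sterol-sensing brake on the pathway, rose by 0.68 ± 0.10 (adjusted p = 0.00718). Sc5d, a late enzyme, rose by 0.81 ± 0.16 (adjusted p = 0.0156), a call lost without the ERG array labelled male or the ERG/GATA1s array labelled female, with p of 0.0529 at most. Stard4, a carrier of sterols, rose by 0.38 (lost without the ERG or the ERG/GATA1s array labelled male). The count was 3 without the ERG array labelled male or without either ERG/GATA1s array, 14 without the WT array labelled male, and 5 with the Y-linked covariate. The part of hepatocyte content in this list was not tested.

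Neutrophil and monocyte genes were higher in carriers for all 23 tested (median 0.63), but only 2 passed: the Fc receptor Fcgr3 (0.79, limma adjusted p = 0.0325) and F13a1, which is also a platelet gene. Both sex-marker fits called 1. The call of Fcgr3 was lost without either ERG or either ERG/GATA1s array or the GATA1s array labelled male (up to 0.104). Their mean signal was 5.8 to 7.05 in non-carriers and 6.52 to 7.39 in carriers, and the WT array labelled female, at 7.05, lay among the carriers. Without it 11 passed, and without either ERG or either ERG/GATA1s array or the GATA1s array labelled male 1 did. S100a8, a calcium-binding protein of neutrophils, read 8.28 and 7.02 (WT), 6.45 and 6.51 (ERG), 7.81 and 7.94 (GATA1s) and 9.15 and 8.69 (ERG/GATA1s), so the gap lay with the ERG pair, and the difference of 1.33 was not called (limma adjusted p = 0.0831). The median of the list was 0.02 without the transgene and 1.18 with it. Elane, the neutrophil elastase, differed by 1.17 (adjusted p = 0.102); both genes were picked after their values were seen. Other lists held few calls: 1 rise of 17 macrophage genes (the haem oxygenase Hmox1, 0.70, lost without any ERG, GATA1s or ERG/GATA1s array), 1 fall of 10 lymphoid genes (the pre-B-cell gene Igll1, -0.64, lost without the ERG array labelled male, either GATA1s array or the ERG/GATA1s array labelled male), and 2 rises of 19 endothelial genes (Tie1, 0.53, and Pecam1, 0.54, both lost without either ERG array or the ERG/GATA1s array labelled male, and Pecam1 also without its partner). The stellate list of 17 had 1 rise, Ngfr (0.49), and the stem and progenitor list of 19 had 1, the angiopoietin Angpt1 (0.82, lost without the ERG array labelled male or either ERG/GATA1s array). Of 9 class II genes Cd74, the invariant chain, rose (0.70 ± 0.11, limma adjusted p = 0.00711). Since 5.05% of all genes were called higher and 9.41% lower, 1 or 2 calls do not set any of these lists apart. None of 9 genes of eosinophils, basophils and mast cells and none of 13 genes of the IGF axis passed in limma, with 2 and 3 at an unadjusted p under 0.05. Ear6 (-1.09) and Itgb7 (-0.46) differed most in the first, and Igfbp1 (0.66) and Igfbp4 (0.58) in the second.

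Cell cycle genes were lower, and the shares over all genes were 9.41% called lower and 5.05% called higher. Of 22 mitosis genes 11 fell and none rose, with all 22 lower and a median of -0.34, and of 23 DNA replication genes 5 fell and 1 rose (median -0.26). The mean signal of the mitosis list was 9.19 to 9.51 in non-carriers and 8.80 to 9.06 in carriers. Tyms, which makes thymidylate, fell by 0.49 (difference -0.49 ± 0.07, limma adjusted p = 0.0066), and the cyclins Ccne1 (-0.49, adjusted p = 0.00931) and Ccnb2 (-0.42, adjusted p = 0.0125) fell as well, though the call of Ccne1 was lost with no ERG block (0.125). Pole (-0.48), a replicative polymerase, and the E2F factor E2f8 (-0.39) fell, calls lost without either ERG array or the ERG/GATA1s array labelled male (up to 0.0654 and, with no ERG block, 0.108). Of the mitotic kinase Aurkb (-0.38) and the kinesin Kif20a (-0.36), the first lost its call without either ERG array (up to 0.058) and the second without the ERG array labelled male. Nusap1, a spindle protein, differed by -0.55 ± 0.10 (adjusted p = 0.013). The single rise was thymidine kinase Tk1 (0.38, adjusted p = 0.0467), a call lost when any array was left out; it was picked after its value was seen. DNA replication falls numbered 2 without either ERG array or the ERG/GATA1s array labelled male, and 11 without the WT array labelled male. The mitosis count went to 0 without the ERG array labelled male and to 18 without the WT array labelled male, and was 5 without the array whose sex markers oppose its label and 7 with the Y-linked covariate. DNA replication falls were 4 and 3 in those fits. The call of Ccnb2 was lost without the ERG array labelled male (0.0529) and that of Nusap1 without either ERG array (0.0522).

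Of 16 lipoxygenase and prostanoid enzymes 5 rose and none fell, against 5.05% of all genes called higher and 9.41% lower. The rises were 2 without the ERG array labelled male and 3 in both sex-marker fits. Alox12, the platelet 12-lipoxygenase, read 7.40 and 7.51 (WT), 6.03 and 6.66 (ERG), 8.16 and 8.89 (GATA1s) and 8.82 and 8.54 (ERG/GATA1s) (1.70 ± 0.28, limma adjusted p = 0.00924). The ERG arrays lay under WT, and every carrier lay above both. Alox5ap (1.28), Ptgs2 (1.03) and Pla2g4a (0.58) rose as well. The call of Alox5ap was lost without the ERG array labelled male (0.0557), and that of Pla2g4a without either ERG or either ERG/GATA1s array or the GATA1s array labelled male (up to 0.0897). Of 7 clade B serpins, the intracellular protease inhibitors, 2 rose and 1 fell, against 5.05% and 9.41% of all genes. The rises were Serpinb2 (1.69 ± 0.24, adjusted p = 0.00627) and Serpinb10 (1.86 ± 0.35, adjusted p = 0.013), the latter lost without the ERG or the ERG/GATA1s array labelled male (up to 0.052). The fall was Serpinb6b (-0.40, adjusted p = 0.0482), lost without any array but the WT array labelled female (up to 0.353, with no ERG block).

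Of 20 genes of hypoxia and glycolysis 3 rose and 2 fell (median 0.31), or 7 rose without the WT array labelled male and 2 in both sex-marker fits. The falls were near the 9.41% of all genes called lower, and 5.05% of all genes were called higher. Pkm, a pyruvate kinase gene, rose by 0.97 ± 0.12 (limma adjusted p = 0.00378) and Pfkm, the phosphofructokinase of muscle and red cells, fell (-0.75 ± 0.09, adjusted p = 0.0035). The other fall, the glucose transporter Slc2a1 (-0.55), lost its call without either ERG array or the GATA1s or ERG/GATA1s array labelled male (up to 0.153, with no ERG block). Bnip3, a mitophagy receptor induced by hypoxia, rose by 1.27 ± 0.22 (adjusted p = 0.00957, or 0.0584 with no ERG block). Of 20 interferon response genes 5 rose and none fell, against 5.05% and 9.41% of all genes. The largest rise was that of Oasl2 (1.03 ± 0.12, limma adjusted p = 0.00374), a sensor-like protein of the antiviral response. Xaf1 (0.66) and Oas2 (0.43) rose too, but their calls were lost without either ERG or either ERG/GATA1s array (adjusted p up to 0.0783 and 0.103), and that of Oas2 also without the GATA1s array labelled male. Without any of these ERG or ERG/GATA1s arrays 2 of the 20 rose, and with the Y-linked covariate 3. Of 16 p53 targets 3 rose, Bbc3 (0.55) and Pmaip1 (0.48), both death-promoting BCL2-family genes, and Sesn2 (0.39), against 5.05% of all genes. The 2 falls (Aen, -0.36, and Gtse1, the latter picked after its value was seen) were near the 9.41% of all genes called lower. Rises numbered 6 without the WT array labelled male and falls 0 without any ERG, GATA1s or ERG/GATA1s array. Of 11 heat shock genes 2 fell, the chaperones Hspd1 (-0.43) and Hsph1 (-0.59), against 9.41% of all genes called lower. The call of Hsph1 was lost without any array but the WT array labelled female (up to 0.142).

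Whether the allele's effect differed with the ERG transgene was tested with an interaction term. It passed for 3 of 14982 genes (0.02%), with 931 at an unadjusted p under 0.05. Nkg7, a granule membrane protein of cytotoxic and myeloid cells, read 5.81 and 5.67 (WT), 4.44 and 4.57 (ERG), 5.64 and 5.82 (GATA1s) and 6.77 and 6.86 (ERG/GATA1s). The carrier difference was -0.01 without ERG and 2.31 with it (interaction 2.32 ± 0.16, limma adjusted p = 0.0104). Plac8, a small cysteine-rich protein of myeloid cells, differed by 0.27 without ERG and 2.40 with it (2.12 ± 0.16, adjusted p = 0.0104). Cmah, which makes the sialic acid Neu5Gc, read 5.38 and 5.44 (WT), 8.03 and 7.75 (ERG), 5.99 and 6.24 (GATA1s) and 6.29 and 6.41 (ERG/GATA1s). The high level of the ERG arrays was absent from the ERG/GATA1s arrays (-2.24 ± 0.19, adjusted p = 0.0186). The neutrophil protease Prtn3 had an interaction of 2.37 (adjusted p = 0.0727), Akr1d1 of -1.17 and Nmnat2 of -1.47 (both adjusted p = 0.139), and none of these passed. All 3 calls were lost without any 1 of the ERG, GATA1s or ERG/GATA1s arrays, and 2 were kept with labelled sex or the Y-linked level as a covariate. The number of calls was 0 to 5 with 1 array left out, except that it was 424 without the WT array labelled male. Within each background the design is 2 against 2: 6 genes passed without ERG, all higher, and 3101 with it. That difference in counts is not a test, and all 2167 genes called over both backgrounds had the same sign in each, against 69.1% of all tested, which the choice of called genes favours.

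**Figure D4:**
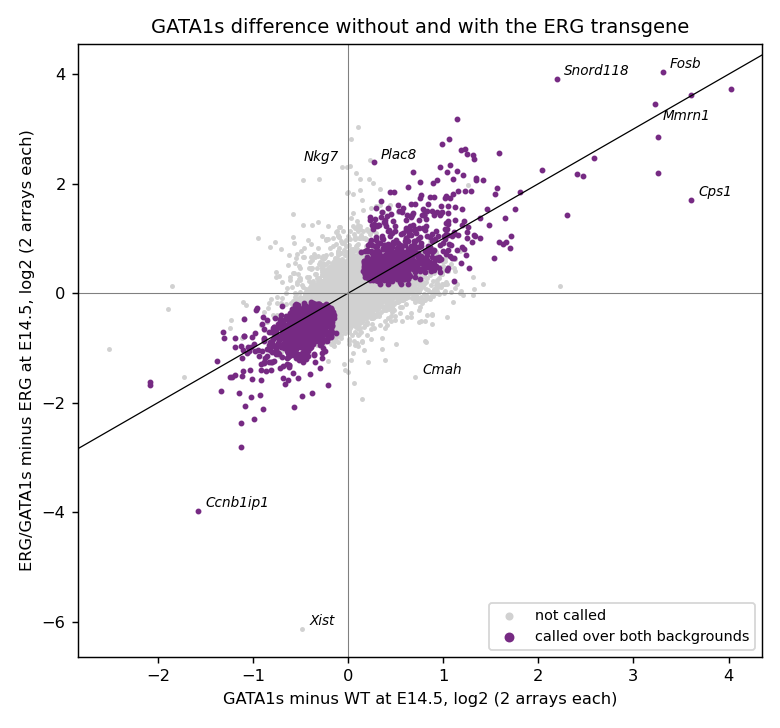
The log2 difference GATA1s minus WT is on the horizontal axis and ERG/GATA1s minus ERG on the vertical axis, with 1 point per gene and called genes in purple. Nkg7 and Plac8 lie high at a difference near 0 without ERG, and Cmah lies low. Mmrn1 lies high on both axes, at 3.23 and 3.46.

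The same contrast at E12.5, 4 arrays against 4 of the same genotypes, gave 457 calls among 15535 genes (2.94%), 274 higher and 183 lower. Mean Y-linked signal there was 3.60 to 3.92 in the carriers and 3.48 to 5.61 in the non-carriers, which overlapped. Xist read 10.02 and 9.83 (GATA1s) and 10.08 and 9.51 (ERG/GATA1s), against 10.65 and 9.35 (WT) and 10.83 and 5.73 (ERG). Neither carrier array labelled male thus had a male pattern at E12.5. At E14.5 Y-linked signal was 6.27 to 6.50 in all carriers but the GATA1s array labelled female. The sex markers of carriers therefore differed between the stages. Among 14810 genes tested at both stages, 206 were called at both. The 185 called in the same direction (160 higher and 25 lower) were 8.6% of the E14.5 calls and 40.7% of the E12.5 calls. Platelet lists were higher at both stages, with E12.5 medians of 0.96, 0.70 and 0.75, and Mmrn1 differed by 2.73 at E12.5. The red cell lists had medians of -0.09, -0.29 and -0.04 there. A term for the difference between stages passed for 258 of 15742 genes (1.64%), 204 more positive at E14.5 and 54 more negative, and 154 of these were called at E14.5. With the Y-linked level as a covariate it passed for 90, and the part of sex in the stage differences was not tested otherwise.

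Kitl, the ligand of the receptor KIT that maintains progenitors and mast cells, was 1.79 more positive at E14.5 (limma adjusted p = 0.000464), with -1.18 ± 0.12 at E12.5 and 0.61 ± 0.13 at E14.5. The latter was lost without the ERG/GATA1s array labelled male, the GATA1s array labelled male or either ERG array (up to 0.072). Fosb rose by 3.68 at E14.5 and differed by 1.0 at E12.5 (stage term 2.68, adjusted p = 0.000542). Ccl3 differed by 0.74 at E12.5 (stage term 2.32), where the non-carriers were already at 9.26, above every carrier of E14.5. Most hepatocyte plasma proteins took opposite directions. At E12.5 24 of 27 fell and 1 rose, with a median of -1.04, at E14.5 5 of 28 rose, and 23 members passed the stage term. F10 rose at both stages, by 0.62 at E12.5 and 0.85 at E14.5 (stage term 0.23, limma adjusted p = 0.646). Serpinf2, the inhibitor of plasmin, was -1.11 at E12.5 and 0.70 ± 0.17 at E14.5 (stage term 1.81, adjusted p = 0.000762), the E14.5 call being lost without either ERG, GATA1s or ERG/GATA1s array (up to 0.108). Apobec3, a cytidine deaminase that restricts retroviruses, differed by -0.27 at E12.5 and 1.10 ± 0.06 at E14.5 (stage term 1.37, adjusted p = 0.000762), though its probe sets differed at E14.5, at 0.29 and 1.10. Of the 21 genes called in opposite directions at the stages, 20 were higher at E14.5 and lower at E12.5. Ly6g, a neutrophil surface protein, was the other (-1.04 at E14.5, 1.58 at E12.5), picked for that reason.

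**Figure D5:**
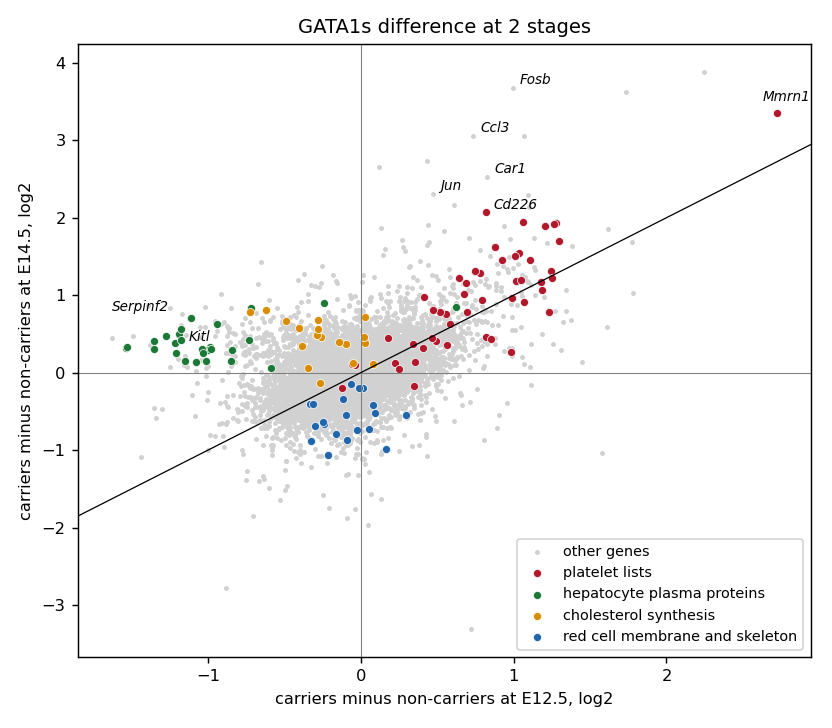
Each point is a gene, with the log2 difference between carriers and non-carriers at E12.5 on the horizontal axis and at E14.5 on the vertical axis. Members of the platelet lists lie toward the upper right. Most hepatocyte plasma proteins lie left of 0, with an E12.5 median of -1.04 and an E14.5 median of 0.32.

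Since the allele is X-linked, its neighbours were examined in RefSeq's gene order. Of the 20 tested genes that flank Gata1, 10 on each side, 1 rose and 3 fell. Over all genes tested 5.05% were called higher and 9.41% lower, so these small counts do not set the neighbours apart. Was, the gene of the Wiskott-Aldrich protein of blood cells, was the rise (0.44 ± 0.10, limma adjusted p = 0.0253). Slc38a5, an amino acid transporter, read 9.38 and 9.26 (WT), 9.86 and 9.81 (ERG), 8.82 and 8.47 (GATA1s) and 8.89 and 8.90 (ERG/GATA1s) (-0.81 ± 0.10, adjusted p = 0.00378). Gripap1 (-0.42) and Rbm3 (-0.38), a cold-inducible RNA-binding protein, fell by less. Of 443 X-linked genes 42 were called (9.48%), against 14.6% of autosomal genes. Across the genome 7 runs of at least 4 adjacent tested genes were called in the same direction. The run Rgs2, Rgs1, Rgs18, Pla2g4a and Ptgs2 rose, by 0.58 to 2.14, and Cdk7, Mrps36, Cenph, Slc30a5 and Pik3r1 fell, with differences from -0.70 to -0.43.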

How the data were processed

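The authors deposited 1 log2 signal for each probe set and array, made with RMA per the submitters' processing notes. The RMA version and genome build are not given in the sources used. The table held 28270 probe sets, 21780 with 1 gene symbol. Each symbol kept the probe set with the highest mean over the 16 arrays. A gene was tested where at least 2 of the fitted arrays exceeded 3.74, the 30th percentile of the table. R 4.3.3 and limma 3.58.1 (lmFit, eBayes, two-sided) fitted carriers against non-carriers with the ERG transgene as a block (5 residual degrees of freedom), an ERG by GATA1s term, the same contrast at E12.5, and a stage term. Benjamini-Hochberg adjustment ran over all genes tested at a threshold of 0.05. The fit was tested on simulated data. The text draws first on the 12 largest called rises and falls, up to 4 called members of each of 34 lists by smallest p, Gata1, Erg, Gata2, sex markers and the 6 smallest p of each added term. Other genes were picked after their values were seen, or for their position in gene order, as stated beside them. Comparisons, members and lists were chosen with earlier results of these data known. Alternatives varied the filter, scaling, covariates, weights, variance model, probe sets and arrays. Promoter sequences are RefSeq's for GRCm38.p6, and protein sequences were not used here.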

Additional observations from a re-analysis of the deposited data

Results flagged for a closer look

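In groups of 4 arrays, the highest or lowest value was set against the others by Dixon's ratio (critical value 0.829). Of 262 groups checked 13 stood out, and chance gives about 1 in 20. The GATA1s array labelled female was the sample apart in 8 of the 13. Among the carriers it had the lowest Car1 (10.78, others 11.34 to 11.45), Slc7a11 (5.92, others 6.78 to 6.93), Serpinb10 (6.82, others 7.56 to 7.59) and Oasl2 (4.92, others 5.52 to 5.54). The remaining 4 were its sex markers, Xist at 10.53 (others 3.97 to 4.22), Eif2s3y at 2.70, Kdm5d at 3.43 and Uty at 3.05, where the other 3 carriers lay with arrays labelled male. Among the non-carriers, the WT array labelled female was high in Sh3yl1 (7.91, others 6.58 to 6.6) and Snord118 (10.39, others 7.27 to 7.61). The WT array labelled male was high in Ddx58 (5.73, others 5.48 and 5.49) and low in Pmaip1 (3.96, others 4.17 to 4.21). The ERG array labelled male had a Gata1 signal of 9.29 where the other 3 read 9.22.

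The allele's effect differed between ERG backgrounds by limma's interaction term for Nkg7 (2.32), Plac8 (2.12) and Cmah (-2.24), calls all lost without any 1 of the ERG, GATA1s or ERG/GATA1s arrays. It differed between stages for Fosb (2.68), Ccl3 (2.32), Serpinf2 (1.81), Kitl (1.79), Apobec3 (1.37) and Pid1 (1.30), all more positive at E14.5.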

How the results depend on the processing

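No paired analysis was possible because the labels carry no replicate number; labelled sex as a covariate gave 2162 calls at E14.5. The 2167 calls at E14.5 became 1104 with the Y-linked covariate, 4205 with arrayWeights (which did not converge), 1403 with no ERG block, 1000 without the array whose sex markers oppose its label, 6 in arrays without ERG, and 735 to 3053 with 1 array left out. Their share of rises, 34.9%, was 48.6% with all 16 arrays in 1 fit, 100% in arrays without ERG, 42.3% after quantile normalization and 29.5% to 43.8% with 1 array left out. The 3 ERG background calls became 5 with trend and robust, and 0 to 424 with 1 array left out, where 0 of the 3 were kept in 6 of the 8 fits. The 457 calls at E12.5 became 271 with centring, 814 with labelled sex and 8200 with arrayWeights, and 149 to 1116 with 1 array left out. The 258 stage calls became 90 with the Y-linked covariate and 4559 with arrayWeights, and 96 to 474 with 1 array left out. The causes were not tested. Of 116 named called genes all kept their direction under up to 24 alternatives with at least 3 arrays a side, and 60 kept their call under all of these. With the Y-linked covariate the E14.5 calls of Ccnb1ip1, Ctse, Rnu12, Nmnat2, Plac8, Kitl, Serpinf2, Serpinb6b, E2f8 and Cebpa were lost. So were those of Hsph1, Nags, Apoa2, Apob, Slc2a1, Xaf1, Pla2g4a, Hmox1, Fcgr3 and Aen. Dim signal limits 20 rises whose non-carrier mean, and 15 falls whose carrier mean, lay under 3.74.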

Other observations

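The genes named here were picked after their values were seen, and how many small RNAs changed was not counted. Rny1, a Y RNA, read 4.48 and 4.61 (WT), 5.04 and 4.36 (ERG), 6 and 5.02 (GATA1s) and 6.83 and 7.18 (ERG/GATA1s), so the GATA1s array labelled male overlapped the non-carriers (1.64 ± 0.32, limma adjusted p = 0.0144). Ro60, whose protein binds Y RNAs, rose by 1.5 ± 0.14 (adjusted p = 0.00168), from 4.99 to 5.52 in non-carriers to 6.46 to 6.97 in carriers. Rnu3a, a U3 small nucleolar RNA, rose by 1.90 ± 0.43 (adjusted p = 0.0227), with 6.68 in the GATA1s array labelled male and 6.79 in the WT array labelled female. Scarna13, a guide RNA of Cajal bodies, rose by 1.45 ± 0.31 (adjusted p = 0.0196), with the GATA1s arrays at 8.42 and 9 and the ERG/GATA1s arrays at 10.02 and 10.64.

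Rsad2, an antiviral interferon-induced gene, read 7.71 and 6.72 (WT), 5.59 and 6.17 (ERG), 4.98 and 5.74 (GATA1s) and 6.30 and 5.71 (ERG/GATA1s). The carrier difference was -1.85 without ERG and 0.12 with it, and -0.86 over both, which did not pass (limma adjusted p = 0.213).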
